A study of Danio rerio with 2 samples.

Results

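The genes described here encode enzymes that oxidize or reduce aldehydes, ketones and quinones, or hydrolyse epoxides, in zebrafish larvae exposed to benzo[a]pyrene (BaP). They were taken from the deposited table by gene symbol, as aldehyde dehydrogenases (aldh), aldo-keto reductases (akr), alcohol dehydrogenases (adh), carbonyl reductases (cbr), members of the DHRS group of short-chain dehydrogenases and reductases (dhrs) and epoxide hydrolases (ephx), together with nqo1, aox5 and aox6. The genes aldh1a2, aldh1a3, aldh18a1, dhrs3a and dhrs3b were left out by the rule. Of 22849 genes in the table, 51 matched, and each of them had values that summed to at least 10 over both libraries. The symbol por, also in the rule, matched 0 genes, and its relatives pora and porb are given below as genes outside the set. The lowest sums belonged to aldh3b2 (24), akr1a1a (29) and dhrs7ca (29), and no matching gene fell under the limit.

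The study profiled messenger RNA of whole larvae of wild-type zebrafish (strain AB), collected 6 days post fertilization (dpf) after exposure from 3 to 6 dpf. Control larvae received dimethyl sulfoxide (DMSO, 0.1%), a solvent, and exposed larvae received 1 µM BaP, a polycyclic aromatic hydrocarbon of smoke and soot. The labels give no DMSO level for the exposed larvae. Each treatment had 1 library, whose RNA came from a pool of 4 biological replicates, so no spread between replicates could be measured and no test between treatments was possible. The number of larvae in a pool is not given in the labels.

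In vertebrates BaP binds the aryl hydrocarbon receptor (AhR) and induces CYP1 enzymes, which turn it into epoxides. Epoxide hydrolase converts these to dihydrodiols, human aldo-keto reductases such as AKR1A1 can oxidize dihydrodiols to catechols that become quinones, and quinone and carbonyl reductases such as NQO1 and CBR1 reduce quinones. Aldehyde dehydrogenases oxidize aldehydes from lipid peroxidation, alcohol and amino acid breakdown to acids, and alcohol dehydrogenases act on the step before.

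The enzyme genes differed in both directions. The 3 highest ratios belonged to DHRS genes, and the lower genes were 3 alcohol dehydrogenases, 3 aldehyde dehydrogenases, akr1a1a, which had the lowest ratio, and dhrs7cb. Values are normalized read counts, scaled and rounded by the authors. A gene was called higher or lower when its value differed at least 2-fold and the 95% counting interval of the ratio, made from estimated reads, excluded a ratio of 1. This interval compares these 2 libraries and covers counting error only. By this rule 6 members were higher in the BaP library (11.8%) and 8 lower (15.7%), so that 27.5% were called, against a background of 6.66% over the 21764 genes with enough reads (3.2% higher and 3.46% lower). The median log2 ratio of the members was -0.12, and that of all genes tested was -0.06. Scaling by the total of all values moved every log2 ratio by 0.17 and took the members' median to 0.05 and that of all genes to 0.10, with 6 members higher and 6 lower. Over all genes the shares called then became 4.61% higher and 2.25% lower, and with a trend on expression taken out they were 3.79% and 2.62%.

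**Figure D1:**
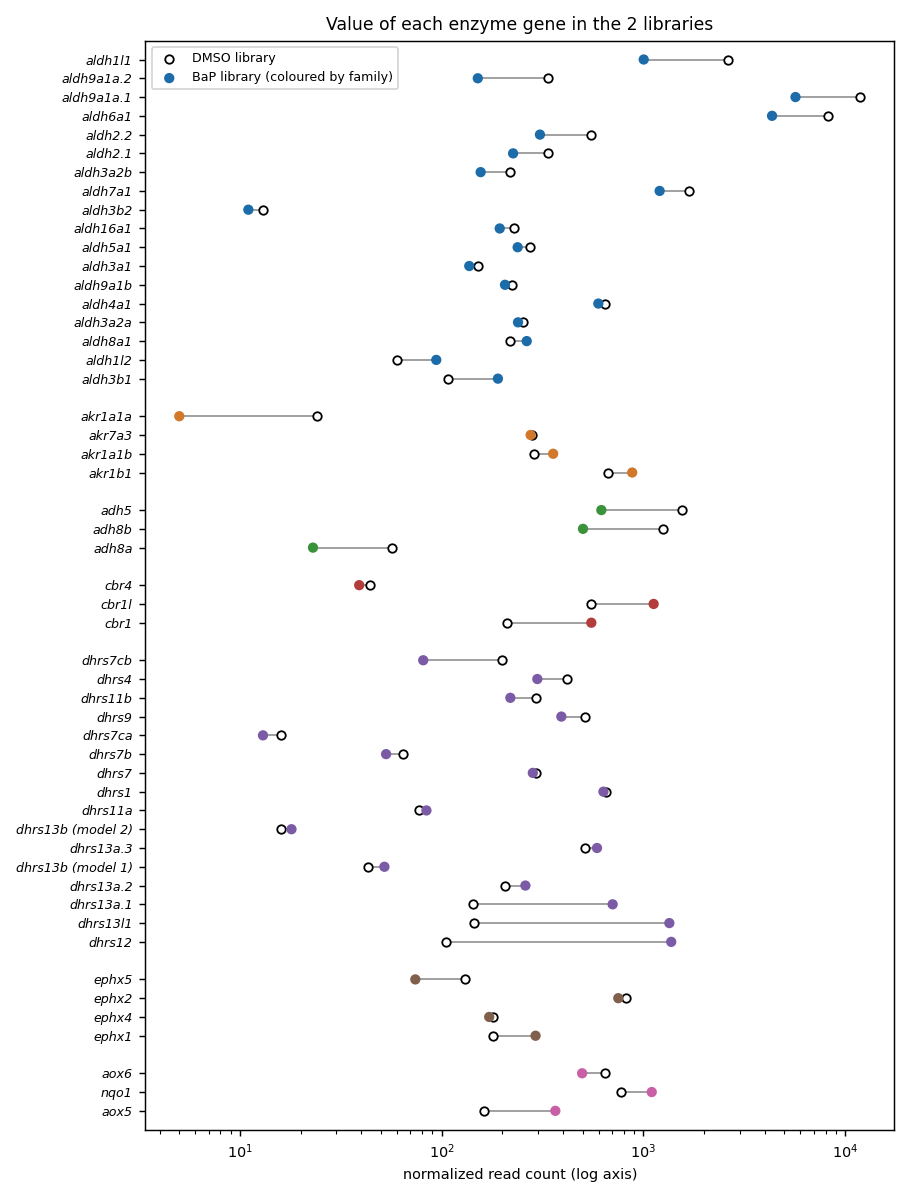
Normalized read count (log axis) of each of the 51 enzyme genes in the DMSO library (open circles) and the BaP library (filled circles, coloured by family), 1 library each. The values span from 5 for akr1a1a in the BaP library to 11906 for aldh9a1a.1 in the DMSO library, and the widest gap is that of dhrs12, with 105 and 1374.

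**Figure D2:**
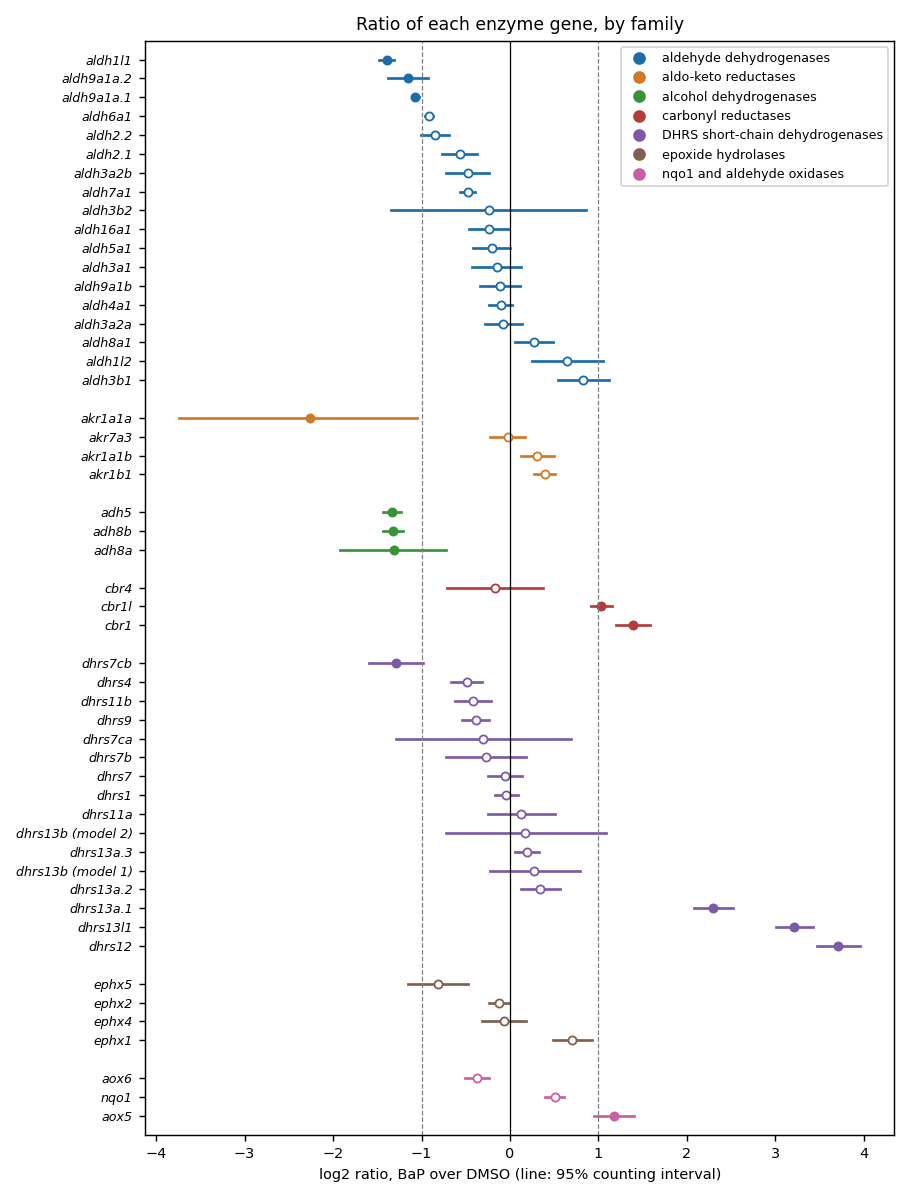
Log2 ratio of BaP over DMSO for each gene, with lines for the 95% counting interval, dashed lines at a 2-fold difference and filled circles for the 14 genes called higher or lower. The 3 alcohol dehydrogenase genes lie together on the left, and dhrs12, dhrs13l1 and dhrs13a.1 lie apart on the right.

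The DHRS genes held the 3 members with the highest ratios. The group of 16 genes belongs to the short-chain dehydrogenases and reductases, enzymes that use NAD(H) or NADP(H), and several vertebrate members act on retinoids or steroids. The gene dhrs12 (ENSDARG00000011770, chromosome 9, 23808546 to 23812636, plus strand) had 105 normalized reads with DMSO and 1374 with BaP. It was 13.1-fold higher (95% interval 11.1 to 15.6), and only 22 of all genes tested had a higher ratio. Next came dhrs13l1 (ENSDARG00000098746, chromosome 14, 4151374 to 4161770, plus strand), with 145 and 1345 normalized reads (9.28-fold higher, 8.03 to 10.8). The gene dhrs13a.1 (ENSDARG00000026322, chromosome 10, 36795861 to 36808348, minus strand) had 143 and 704 normalized reads (4.92-fold higher, 4.24 to 5.75). All are protein-coding genes in coordinates of the table, which names no build, while the submitters' processing notes name GRCz11.

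The other relatives of dhrs13 lay much closer to equality. The gene dhrs13a.2 had 205 and 260 normalized reads, and dhrs13a.3 had 516 and 589. Of the gene models named dhrs13b, ENSDARG00000031814 had 43 and 52 and ENSDARG00000097019 had 16 and 18, and the intervals of both included a ratio of 1. The latter dhrs13b model overlaps the protein-coding gene zgc:198241 by 8991 bases on the same strand. Tandem copies and overlapping genes can share reads, and no source used here says how the authors treated reads that match several genes.

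Of the remaining DHRS genes 1 was called, dhrs7cb, which was lower. It had 198 and 81 normalized reads (2.44-fold lower, 1.98 to 3.03). In mammals DHRS7C is known from the sarcoplasmic reticulum of heart and skeletal muscle. An antisense gene overlaps dhrs7cb by 964 bases, with 10 normalized reads in each library, and no source used here says if the strand was used in counting. Its copy dhrs7ca had 16 and 13 normalized reads, too few to place its ratio (0.81, 0.41 to 1.61) above or below that of dhrs7cb. Skeletal muscle genes, a list of 15 chosen after the members' values had been seen, had a median log2 ratio of -0.76, with 2 lower and 0 higher and all 15 below a ratio of 1. Their part in the difference of dhrs7cb was not tested. The other 12 DHRS genes differed by at most 1.40-fold, which was reached by dhrs4, a gene for a peroxisomal carbonyl and retinal reductase in mammals (418 and 298 normalized reads). The retinol dehydrogenase gene dhrs9 had 513 and 392, and dhrs1 had 652 and 634.

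Both cytosolic carbonyl reductase genes were higher in the BaP library. CBR1 reduces quinones, prostaglandins and other carbonyl compounds with NADPH. The gene cbr1 (ENSDARG00000036587, chromosome 1, 47165842 to 47173403) had 211 and 552 normalized reads (2.62-fold higher, 2.29 to 2.99). Its relative cbr1l (ENSDARG00000021149, chromosome 21, 21633213 to 21641194) had 550 and 1124 (2.04-fold higher, 1.88 to 2.22) and lay just inside the 2-fold limit. The third gene, cbr4, whose mammalian product works in mitochondrial fatty acid synthesis and reduces quinones, had 44 and 39 normalized reads.

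Of the quinone reductase and the aldehyde oxidases, aox5 was called. The gene nqo1, for the NAD(P)H quinone reductase, a classical target of both AhR and Nrf2 in mammals, had 775 and 1100 normalized reads. Its ratio of 1.42 (1.32 to 1.53) was above 1 beyond counting error and below the 2-fold limit. Aldehyde oxidases are molybdenum enzymes that oxidize aldehydes and heterocycles. The gene aox5 had 162 and 366 normalized reads (2.26-fold higher, 1.94 to 2.64), and aox6 had 643 and 497 (ratio 0.77, 0.70 to 0.85). These neighbours lie on opposite strands of chromosome 22 with 145 bases between their ends, and their intervals do not overlap.

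Among the aldo-keto reductases, which use NADPH to reduce aldehydes and sugars, 1 of 4 genes was called. Of all genes tested 6.66% were called, so a count of 1 among 4 says little. The gene akr1a1a, for an aldehyde reductase, had 24 and 5 normalized reads and was 4.80-fold lower, with a wide interval of 2.07 to 13.3 from so few reads. Its copy akr1a1b lay on the other side of equality, with 288 and 357 normalized reads (ratio 1.24, 1.09 to 1.41). The aldose reductase gene akr1b1 had 671 and 880 (ratio 1.31, 1.21 to 1.42), and akr7a3, whose rat counterpart reduces aflatoxin dialdehyde, had 281 and 276. The genes akr1b1 and akr7a3 each overlap another protein-coding gene on the opposite strand, si:dkey-180p18.9 and mrto4 respectively.

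No epoxide hydrolase gene was called among 4, where 6.66% of all genes tested were, so this count says little. The gene ephx1, for the microsomal enzyme that hydrolyses BaP epoxides in mammals, had 179 and 292 normalized reads, a ratio of 1.63 (1.40 to 1.91). The gene ephx2, for the soluble enzyme that acts on fatty acid epoxides, had 817 and 751 (ratio 0.92, 0.85 to 0.995), and its interval did not overlap that of ephx1. The gene ephx5 had 130 and 74 normalized reads (1.76-fold lower, 1.39 to 2.23), and ephx4 had 180 and 172.

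All 3 alcohol dehydrogenase genes of the set were lower in the BaP library, by nearly the same ratio. The gene adh5 (ENSDARG00000080010, chromosome 14, 43590816 to 43602968), for the class III enzyme that oxidizes the glutathione adduct of formaldehyde, had 1562 and 619 normalized reads (2.52-fold lower, 2.35 to 2.71). The gene adh8b (ENSDARG00000024278, chromosome 13, 12633223 to 12646752) had 1255 and 502 (2.50-fold lower, 2.31 to 2.71). Its neighbour adh8a, 7222 bases away on the same strand, had 57 and 23 (2.48-fold lower, 1.65 to 3.80). The log2 ratios of the 3 genes lay between -1.34 and -1.31, and each stayed at least 2-fold lower when the libraries were scaled by their totals. Outside the set, zgc:63568, also named adh5l, had 22 and 23 normalized reads (ratio 1.05, 0.62 to 1.79) and was not called. The gene esd, for the hydrolase that follows Adh5 in formaldehyde oxidation, is outside the set and had 321 and 133 normalized reads (2.41-fold lower, 2.05 to 2.84).

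**Figure D3:**
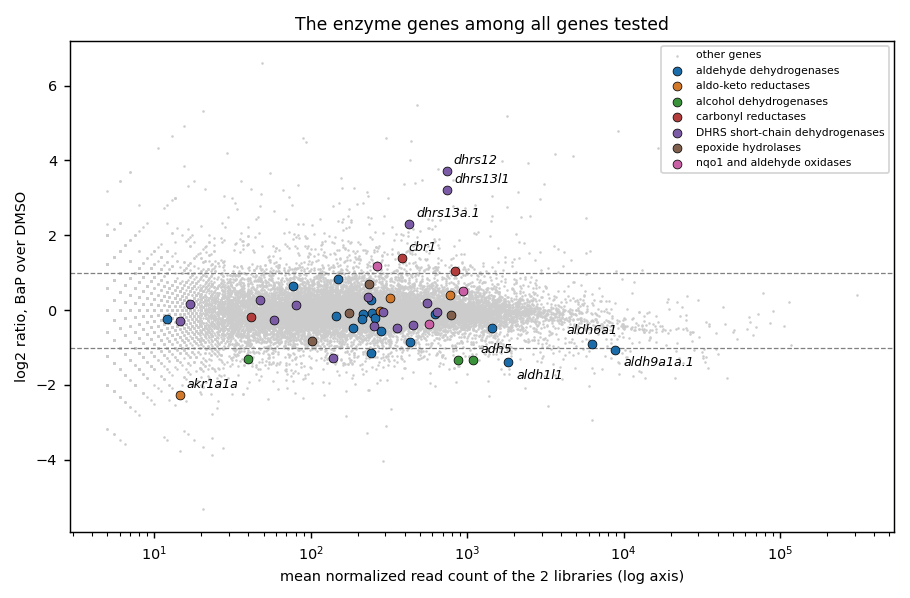
Log2 ratio of BaP over DMSO against the mean normalized read count of both libraries (log axis) for all genes tested (grey) and the 51 enzyme genes (coloured by family), with dashed lines at a 2-fold difference. The genes dhrs12 and dhrs13l1 lie far above the bulk of genes of like abundance, and aldh9a1a.1 and aldh6a1 lie near the lower dashed line among the most abundant genes.

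The aldehyde dehydrogenase family, with 18 genes, had 0 higher and 3 lower members. The lower share was 16.7%, against 3.46% of all genes tested. Of the family's 18 ratios 15 were below 1 (83.3%, against 56.4% of all genes tested). The intervals of 13 of the 18 genes excluded a ratio of 1, in either direction. Those of aldh3a1, aldh3a2a, aldh3b2, aldh4a1 and aldh9a1b, all with ratios below 1, included it. With the libraries scaled by their totals, 11 of the 18 ratios were below 1 (61.1%, against 37.8%). Under that scaling aldh1l1 was the only member of the family still called, where 6.86% of all genes tested were called. The summed values of the family were 28035 with DMSO and 15242 with BaP, and 2 genes made up most of both sums. The family median log2 ratio was -0.24, and it ranged from -0.24 to -0.07 over the other scalings and filters. The gene aldh1l1 (ENSDARG00000077004, chromosome 6, 22068589 to 22104394), for the cytosolic enzyme that converts 10-formyltetrahydrofolate to tetrahydrofolate and carbon dioxide, had 2640 and 1004 normalized reads (2.63-fold lower, 2.48 to 2.78). Its mitochondrial counterpart aldh1l2 had 60 and 94 (ratio 1.57, 1.19 to 2.08).

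The tandem genes aldh9a1a.1 and aldh9a1a.2 were the other lower members. ALDH9A1 makes the precursor of carnitine in the synthesis of that fatty acid carrier. The gene aldh9a1a.1 had 11906 and 5678 normalized reads (2.10-fold lower, 2.05 to 2.15), the highest value of any member in either library. The gene aldh9a1a.2, 2922 bases away, had 336 and 151 (2.22-fold lower, 1.91 to 2.6). With the libraries scaled by their totals both fell short of 2-fold (1.87-fold and 1.98-fold), and after correction for a trend with expression aldh9a1a.1 was 1.70-fold lower. The copy on another chromosome, aldh9a1b, had 223 and 206.

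Other aldehyde dehydrogenases missed the limit. The gene aldh6a1, for the mitochondrial methylmalonate semialdehyde dehydrogenase of valine breakdown, had 8201 and 4345 normalized reads. At 1.89-fold lower (1.83 to 1.94) it was the member just outside the limit, followed by aldh2.2 (553 and 307, 1.80-fold lower) and aldh3b1 (107 and 190, 1.78-fold higher). The neighbour of aldh2.2, aldh2.1, had 335 and 226, and both are copies of the gene for the mitochondrial enzyme that oxidizes acetaldehyde. The lysine breakdown gene aldh7a1 had 1674 and 1204, a ratio of 0.72 (0.68 to 0.76). The gene aldh3a1, known in mammals as a gene that AhR ligands induce, had 152 and 137, and its interval, 0.745 to 1.09, included a ratio of 1. Near equality lay also the proline breakdown gene aldh4a1 (643 and 598), the gene aldh5a1 for the succinate semialdehyde dehydrogenase of GABA breakdown (275 and 238) and the fatty aldehyde dehydrogenase gene aldh3a2a (252 and 239). Over all families, 31 of the 37 members not called differed by less than 1.5-fold.

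Related genes differed more in some pairs than in others. Of 7 pairs of related members that are neighbours in the genome, 5 had overlapping intervals, and dhrs13a.2 with dhrs13a.1 and aox6 with aox5 did not. In the former pair the genes are 2448 bases apart, and the log2 ratios were 0.34 and 2.30. In the latter they were -0.37 and 1.18, and of the neighbouring pairs only this pair lay on opposite sides of equality. Of 7 chosen pairs of related genes on different chromosomes, 3 lay on opposite sides of equality. They were akr1a1a and akr1a1b (-2.26 and 0.31), aldh1l1 and aldh1l2 (-1.39 and 0.65), and dhrs11a and dhrs11b (0.13 and -0.42), of which the last had overlapping intervals. The intervals of cbr1 and cbr1l, and those of aldh9a1a.1 and aldh9a1b, also did not overlap. Both of these pairs lay on the same side in the deposited values. Under scaling by the totals 5 of the 7 pairs lay on opposite sides, with aldh3a2a and aldh3a2b and with aldh9a1a.1 and aldh9a1b added. The pairs adh5 with adh8b and ephx1 with ephx2 were also compared and are not in these counts. In the deposited values ephx1 and ephx2 lay on opposite sides (log2 ratios 0.71 and -0.12), and adh5 and adh8b did not (-1.34 and -1.32). Of 28 genes flanking the called members 7 were called, where 6.66% of all genes tested were. The count cannot be compared with that share, because some of the 7 are themselves called members. These are adh8a and adh8b, and aldh9a1a.1 and aldh9a1a.2, which flank each other. The other 3 were casp3b, wdfy2 and morc3b. The caspase gene casp3b, 5779 bases before dhrs13l1, had 207 and 619 normalized reads. The gene wdfy2, 956 bases after dhrs12, had 519 and 1091, and morc3b, 5125 bases after cbr1, had 4 and 12. These 3 were named after their values had been seen.

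**Figure D4:**
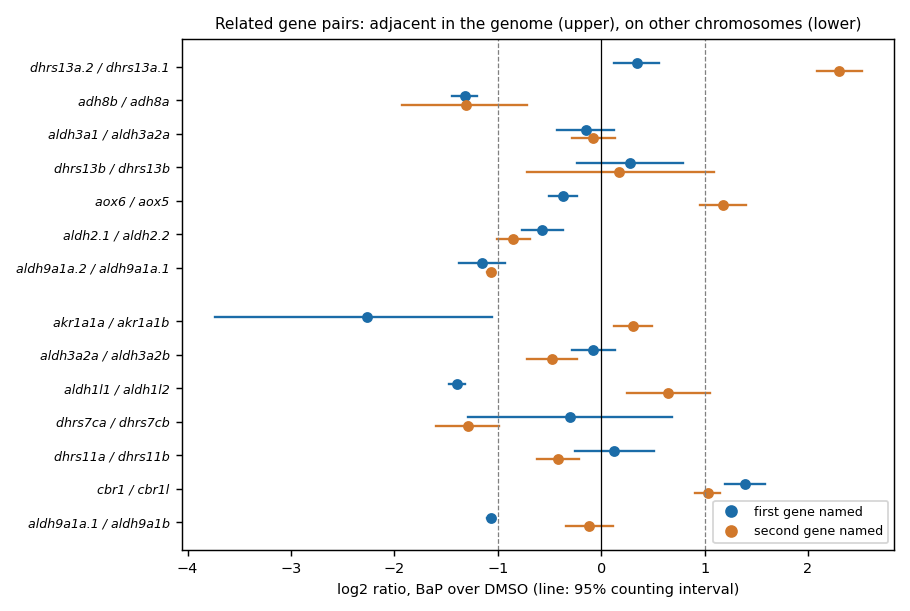
Log2 ratio of BaP over DMSO, with lines for the 95% counting interval, for 7 pairs of adjacent related genes (upper rows) and 7 pairs on different chromosomes (lower rows), the first gene named in blue and the second in orange. Wide separations are seen for dhrs13a.2 and dhrs13a.1, aox6 and aox5, akr1a1a and akr1a1b, and aldh1l1 and aldh1l2.

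Genes that act before and beside these enzymes were mostly higher in the CYP1 and Nrf2-controlled lists. Of 4 measured CYP1 genes 3 were higher, namely cyp1a (650 and 17859 normalized reads), cyp1b1 (37 and 842) and cyp1c2 (69 and 551), while cyp1d1 had 333 and 231. The genes of cytochrome P450 reductase, which passes electrons from NADPH to P450 enzymes, were both higher, with 635 and 1447 normalized reads for pora (2.28-fold) and 1038 and 3613 for porb (3.48-fold, 3.29 to 3.68). Of 18 glutathione and NADPH genes that Nrf2 controls in vertebrates 10 were higher and 1 lower (median log2 ratio 1.08), and of 8 receptor and regulator genes 1, nfe2l2b, was higher (median 0.28). The median of the enzyme genes was -0.12. Of the Nrf2-controlled genes, prdx1 (200 and 3134 normalized reads) and gstp2 (30 and 289) had the highest ratios, and hmox1a (505 and 178) was the lower one. The gene pgd, whose enzyme supplies NADPH, had 441 and 1144. Of 18 other carbonyl and quinone enzymes 1 was higher, the electron carrier gene cyb5a (429 and 2464 normalized reads), and 1 lower, esd (median -0.17). Of the members that the table assigns to the KEGG pathway of xenobiotic metabolism by cytochrome P450, 2 of 7 were higher (cbr1 and cbr1l) and 1 lower (adh5), and of 24 other genes of that pathway 10 were higher and 0 lower. Of these 24 other genes 11 had ratios below 1 (median log2 ratio 0.22). Several KEGG pathways were counted, and not all are given. In that of drug metabolism by cytochrome P450, of 24 other genes 7 were higher and 1 lower (median -0.18).

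Marker lists of several tissues also differed between the libraries, some lower and some higher with BaP. In RNA of whole larvae fewer cells of a type and less RNA per cell cannot be told apart. Of 21 defining markers of liver, intestine, exocrine pancreas, epidermis and erythrocytes, all but the globin gene hbaa1, listed at 0 in both libraries, had reads. Of 15 liver genes 7 were lower and 0 higher (median log2 ratio -0.99, summed values 57667 and 34010), with fabp10a at 8255 and 8416 and tfa at 7282 and 2499. Of 10 intestine genes 1 was lower and 1 higher (median -0.44, sums 34851 and 25838). Of 13 exocrine pancreas genes 12 were lower and 0 higher (median -1.42, sums 343071 and 140380), and of 10 epidermis genes 7 were lower and 0 higher (median -1.39, sums 203326 and 70869). The 7 lower epidermis genes are all keratin genes. The others were not called, with epcam at 2008 and 2662, cldni at 1653 and 2343 and anxa1c at 470 and 354. Of 6 measured erythrocyte genes 4 were higher and 0 lower (median 1.46, sums 1355 and 3727). Counts of these and the other gene lists were made with the deposited values only. Scaling by the totals moves every log2 ratio up by 0.17, so list genes near the 2-fold limit could change call. The part of these tissues in the lower values of the alcohol and aldehyde dehydrogenase genes, or in the higher values of the DHRS, carbonyl reductase and aox5 genes, was not tested.

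**Figure D5:**
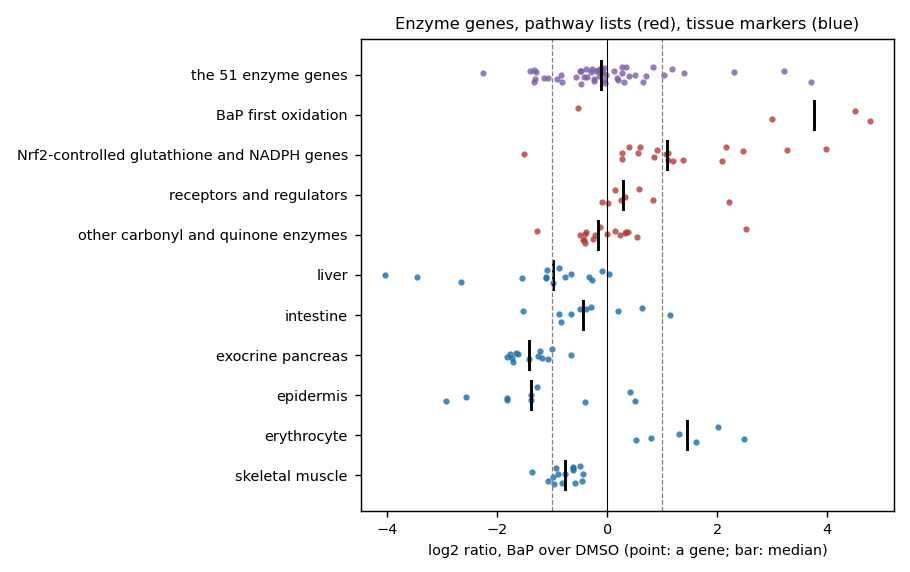
Log2 ratio of BaP over DMSO of single genes (points) and their median (bars) for the 51 enzyme genes, pathway lists (red) and tissue marker lists (blue), with dashed lines at a 2-fold difference. The enzyme genes are centred at -0.12, the Nrf2-controlled list at 1.08, the liver list at -0.99 and the exocrine pancreas list at -1.42.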

How the data were processed

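Messenger RNA of whole larvae was sequenced in 1 library per treatment. Per the submitters' processing notes, Trimmomatic 0.38, STAR 2.6.1d and featureCounts 1.6.3 were used, with no role given, and danRer11 and GRCz11 appear there as builds. The deposited values are whole numbers but a score scaled and rounded by the authors, not raw counts: the file calls them normalized, and low values alternate in frequency as scaled and rounded reads would. No source used here gives the scaling method. The design had allowed for either unit.

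The factor per library was estimated from that pattern as 0.679 (DMSO) and 0.544 (BaP), which gives 19804453 and 21996067 estimated reads. In simulated columns the estimate came within 0.001 of the true factor in 8 of 8 cases. The 95% intervals of the ratios follow Clopper and Pearson, given the summed reads, and were widened for rounding. They cover counting error only, since each treatment has 1 library. The reads carry no molecular identifiers. On data simulated for this comparison over 21614 genes, 96.7% of intervals held the true ratio. The call rule found 96% of genes changed 3-fold and 6.12% of those changed 1.5-fold, which is below the limit. It called 41 of 21415 unchanged genes. No fold between 1.5 and 3 was simulated, the range in which most called members lie. The simulated reads carried counting error only, as the intervals assume. These shares therefore say nothing about differences between larvae or pools. A value of 0 was set to 3 reads in ratios.

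Named are all members called, the 2 with the largest summed values in each family, and nqo1, aox5, aox6, ephx1 and ephx2, and further members are named after their values were seen. Of the lists, up to 4 called genes were to be named, and those that were not called are likewise named with values known. Members and lists were chosen with earlier results of these data known. Values of different genes are not corrected for length. No test between treatments was made. Other scalings, filters, folds and a pseudocount were tried, and the use of the values as reads was added after seeing the data. No sequence is shown. Computations ran in Python 3.11.15 with scipy 1.17.1 and numpy 2.4.6 (intervals), pandas 2.3.3, matplotlib 3.10.9 (figures) and statsmodels 0.14.6 (trend).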

Additional observations from a re-analysis of the deposited data

How the results depend on the processing

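The 6 higher members were called under each other scaling (median of ratios, trimmed mean of M values, total of all values), each filter, the pseudocount of 1, the removal of the trend on expression, the fold alone and the values taken as reads. The 8 lower members were 6 under scaling by the total, without aldh9a1a.1 and aldh9a1a.2, 7 with the trend removed, without aldh9a1a.1, and 7 with a sum of at least 50, which leaves out akr1a1a by construction. At a fold of 3 the members were 3 higher (dhrs12, dhrs13l1 and dhrs13a.1) and 1 lower (akr1a1a), and at 1.5 they were 9 and 11. Of all genes, 697 were higher and 753 lower. The counts were 1003 and 490 under scaling by the total, 824 and 571 with the trend removed, 552 and 497 with a sum of at least 50, 1566 and 1872 at a fold of 1.5, and 284 and 225 at a fold of 3. The higher share of called genes, 48.1%, thus became 67.2% under scaling by the total. The median log2 ratio of the members ranged from -0.12 to 0.05, and that of the epoxide hydrolases from -0.09 to 0.07, so neither has a fixed direction. No paired analysis was possible because each treatment has 1 library. Depth limits most the ratios of akr1a1a, aldh3b2 and dhrs7ca, the members with the fewest reads.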

Other observations

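Pathways that hold some of the lower members differed within themselves. The lists in this section were chosen after the members' values had been seen. Of 12 other enzymes of formaldehyde and folate one-carbon metabolism 2 were higher and 3 lower. Beside esd, the lower genes were ftcd, for a histidine breakdown enzyme that transfers a formimino group to folate (1294 and 460 normalized reads, 2.81-fold lower, 2.59 to 3.06), and mthfd1a (102 and 37). The higher genes were mthfd2 (41 and 169 normalized reads, 4.12-fold higher, 3.08 to 5.62) and mthfd1l (51 and 112). Their relatives mthfd1b (745 and 702) and mthfd2l (17 and 17) were not called. The serine hydroxymethyltransferase genes shmt1 and shmt2 had 831 and 490 and 730 and 456 normalized reads, and neither was called.

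In the lists for the pathways of aldh9a1a.1, which was called, and aldh6a1, which was not, no gene was called in the deposited values. Of all genes tested 6.66% were called, so a count of 0 in lists as short as those given here says little. Of 9 genes of carnitine synthesis and use 0 were higher and 0 lower (median log2 ratio 0.10), with log2 ratios from -1.22 for slc22a5, which had 7 and 3 normalized reads, to 0.87. The highest was bbox1, for the last enzyme of carnitine synthesis, with 81 and 148 normalized reads (ratio 1.83). Scaling by the totals raises every log2 ratio by 0.17, and the call of bbox1 was not checked under it. Of 14 measured genes of valine and propionate breakdown 0 were higher and 0 lower (median -0.14), with log2 ratios from -0.41 to 0.68. Of 7 genes of molybdenum enzymes and their cofactor other than the aldehyde oxidases 0 were called in either direction (median -0.38), with 1423 and 1016 normalized reads for xdh.

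A fixed list of 8 genes outside the symbol rule was examined, and it may not hold every relative of these families. Of these 8, 2 were higher, pora and porb, which the name table pairs with POR rather than with a named enzyme family. The other 6, which it pairs with the dhrs, akr and adh families, were not called. The table's flj13639, named dhrs12la there, had 171 and 165 normalized reads, zgc:92630 (dhrs11b.2) had 204 and 224, and zgc:63568 (adh5l) had 22 and 23. The gene si:dkey-180p18.9, named AKR1B1 there, had 293 and 407 normalized reads, a ratio of 1.39 (1.23 to 1.57). It overlaps the member akr1b1 by 3779 bases on the opposite strand, so these genes can share reads. Few reads fell on si:ch211-165b10.3 (dhrs12lb), with 18 and 20, and on zgc:198241 (dhrs13b.2), with 3 and 5.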
